A study of Mus musculus with 3 samples.

Results

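The ribosome biogenesis and nucleolar genes described here are 45 mouse genes taken by symbol from a given list, many of them known targets of MYC. They encode factors that make, modify and cut ribosomal RNA, assemble the small and large ribosomal subunits, or make up the bulk of the nucleolus. All 45 were found among the 31053 gene symbols of the count tables. By role they are 4 box C/D proteins, 5 box H/ACA proteins and their chaperone, 3 subunits of RNA polymerase I, 11 factors of the small subunit, 17 factors of the large subunit and 5 abundant or regulatory nucleolar proteins. Whole tumors of 3 TH-MYCN mice, heterozygous for a transgene that drives human MYCN from the tyrosine hydroxylase promoter, were dissociated and profiled as single cells by counting transcript 3′ ends with unique molecular identifiers (UMIs). Tumors 1, 2 and 3 were taken at 62, 79 and 63 days of age. They form a single group without normal tissue, so every comparison is between cell classes, or between tumor cells, within the same animals. Whether reads of the human transgene are counted under mouse Mycn (chr12:12936093-12941914, minus strand, GRCm38) was not tested.

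Ribosome production starts in the nucleolus, where RNA polymerase I transcribes a long precursor that small nucleolar ribonucleoproteins modify and that large assemblies of processing factors cut and fold. MYC proteins are known to drive transcription of many genes of this pathway, and MYCN, the family member amplified in high-risk neuroblastoma, has been tied to enlarged nucleoli and high ribosome output. Nucleolar size is an old histological sign of rapid growth.

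Kept cells, meaning the barcodes present in the normalized files, numbered 1914, 1221 and 2515 in tumors 1, 2 and 3, with medians of 4282.5, 1594 and 1816 UMIs. Barcodes seen in at least 2 tumors numbered 4. Clusters were computed with the members held out and named by markers, which gave 352, 864 and 2051 tumor-like cells, 613, 103 and 186 macrophage-like cells and 236, 54 and 22 neutrophil-like cells, beside smaller classes of lymphoid, stromal, erythroid and dendritic-like cells. Each of the 5 tumor-like clusters was marked by 12 of 13 tumor-like markers, and 283 cells without a named class were left out of class sums. Macrophage-like cluster 10, with 35 of 103 and 68 of 186 macrophage-like cells of tumors 2 and 3, also carried 5 tumor-like markers, and doublets and background cannot be told apart there. Mycn stood at 747, 343 and 594 CPM (UMI counts scaled to library size) in the tumor-like sums. Myc was nearly silent there, with 3, 2 and 4 UMIs in all.

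Mycn UMIs outside the tumor-like class differed between tumors, and whether they come from background RNA, doublets or cells at class borders was not tested. With each cell thinned to 500 UMIs, Mycn was seen in 25%, 18.6% and 28.6% of tumor-like cells of tumors 1, 2 and 3, and in 0.326%, 11.7% and 14.5% of macrophage-like cells. Neutrophil-like cells held it in 1.27%, 14.8% and 18.2%. In T cell-like cells the shares were 1.37%, 10.9% and 13.2%. Without thinning, Mycn was seen in 47.8% of T cell-like and 49.8% of tumor-like cells of tumor 2, classes with the same median depth there of 1533.5 UMIs. Tumor 1 was nearly free of Mycn outside the tumor-like class, and in tumors 2 and 3, where tumor-like cells made up 70.8% and 81.6% of kept cells against 18.4% in tumor 1, it was spread over all classes. How far the members' levels share such a source was not tested. Corrected counts are given beside the members' shares below.

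Tumor-like cells devoted the largest share of their transcripts to nucleolar genes in every tumor. The 45 members together made up 1.08%, 1.18% and 1.09% of all UMIs of tumor-like cells (mean 1.12%, SD 0.0569, n = 3 tumors). The narrow spread over the 3 animals stands beside a difference in median depth from 937.5 to 1823 UMIs per tumor-like cell. Macrophage-like cells gave 0.243%, 0.520% and 0.507%, and neutrophil-like cells 0.0805%, 0.538% and 0.663%. Both myeloid classes were far lower in tumor 1 than in tumors 2 and 3, as were their Mycn shares. T cell-like cells gave 0.357%, 0.955% and 0.866% and B cell-like cells 0.383%, 0.851% and 0.936%, the nearest to the tumor-like class in tumors 2 and 3. Endothelial-like cells stayed lower, at 0.348%, 0.433% and 0.536%. No class of any tumor reached its tumor-like value. With the ambient-corrected counts the tumor-like mean was 1.43%, and other classes moved too. Those counts are not the raw ones less background alone, since tumor-like cells of tumor 1 total 818811 in them against 617783 raw UMIs. How much of each shift comes from ambient removal was not tested. Up went T cell-like cells of tumor 2 to 1.32%, B cell-like cells of tumor 3 to 1.175% and macrophage-like cells of tumor 2 to 0.683%. Down went CAF-like cells of tumors 1 and 3, endothelial-like cells of tumor 1 and plasmacytoid dendritic-like cells of tumor 3, each by little. The tumor-like class was still highest in each tumor, and Mycn in macrophage-like cells went from 0.00112%, 0.0170% and 0.0216% of UMIs to 0.000754%, 0.0278% and 0.0184%, up in tumor 2 and down in the others. In the main counts the tumor-like mean was 1.19% without the 2 tumor-like clusters of high mitochondrial share.

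**Figure D1:**
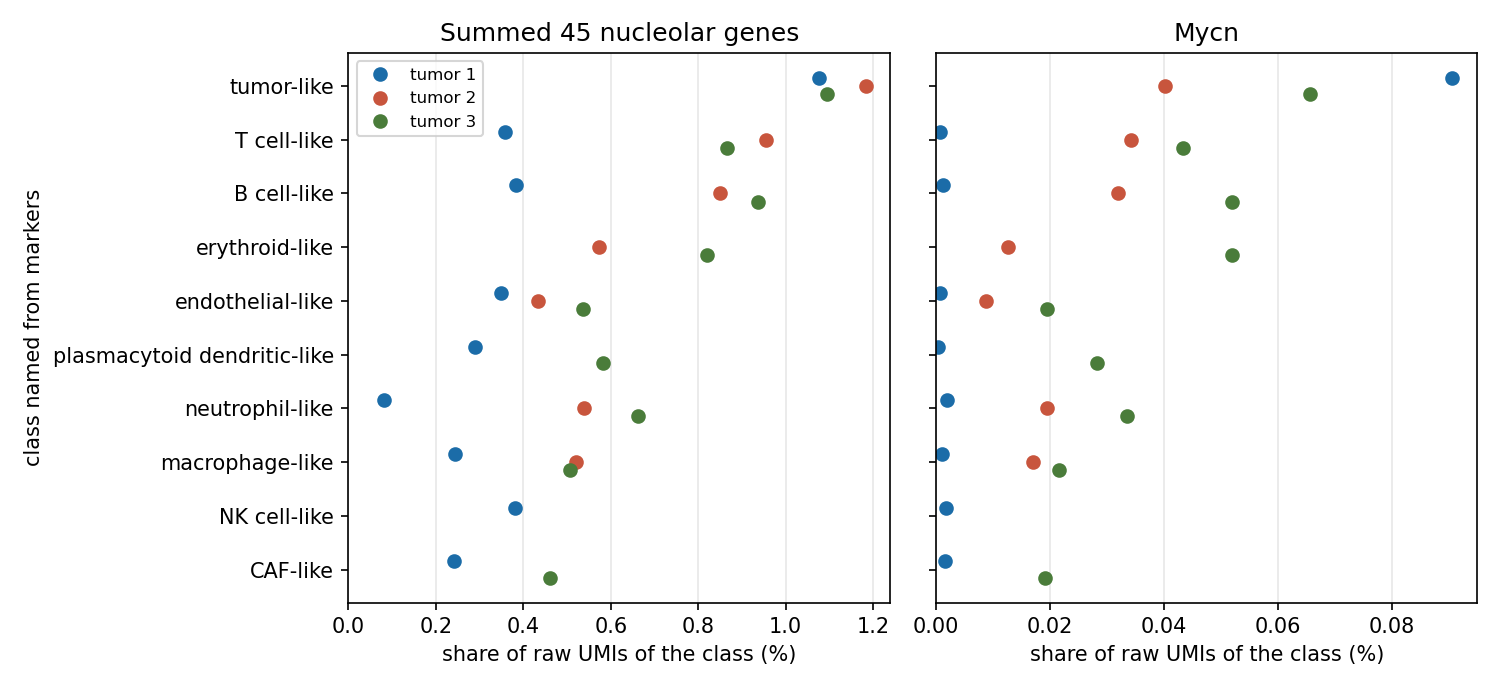
Share of raw UMIs from the 45 ribosome biogenesis and nucleolar genes (left) and from Mycn (right) in each marker-defined class, with a point for each tumor. Other classes show more of both in tumors 2 and 3 than in tumor 1, and tumor-like cells stand highest for the members in all 3.

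Within tumor-like cells the members ranged from Npm1 at a mean of 2816 CPM down to Polr1a at 16.2 CPM, on a scale that counts each transcript once and so needs no scaling by length. Their median was 73.3 CPM, with 19 members above 100 CPM and 3 below 20 CPM. Median abundance differed by role. The box C/D proteins had a median of 276 CPM, the box H/ACA group 166 CPM, the abundant nucleolar proteins 209.7 CPM and the large-subunit factors 72.4 CPM, whereas small-subunit factors stood at 31.4 CPM and polymerase I subunits at 20.8 CPM. By the mean over tumors, tumor-like cells were the highest class for 30 of 45 members, followed by B cell-like and erythroid-like cells with 4 each. Per tumor the count was 32 members in tumor 1, 20 in tumor 2 and 17 in tumor 3, the last 2 being those with more Mycn UMIs in the other classes.

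Every nucleolar gene that could be tested had a positive fold change in tumor-like cells against the mean of the other classes, and fewer were called. A class of a tumor was summed over its cells, and edgeR compared tumor-like sums with the mean of the log levels of the other classes over the 3 tumors. Of the 38 members that passed the low-count filter 12 rose, beside 6.17% of all 7843 genes tested, and 0 fell, beside 1.58% (0 lower at unadjusted p under 0.05 in edgeR, and 0 by DESeq2). The log2 fold change was positive for 38 of 38, with a median of 1.11 against 0.17 over all genes. At unadjusted p under 0.05, 31 members were higher, beside 1768 of the 7843 genes. The filter can keep a gene through a single class, so these counts do not speak for the 7 members it removed: Polr1a, Polr1b, Utp4, Noc4l, Nob1, Wdr74 and Noc3l. Counted without any fit, tumor-like CPM exceeded the mean of the other classes in 3 of 3 tumors for 42 of the 45 members, in 2 tumors for Rrp12 and Polr1a, and in 1 tumor for Heatr1.

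**Figure D2:**
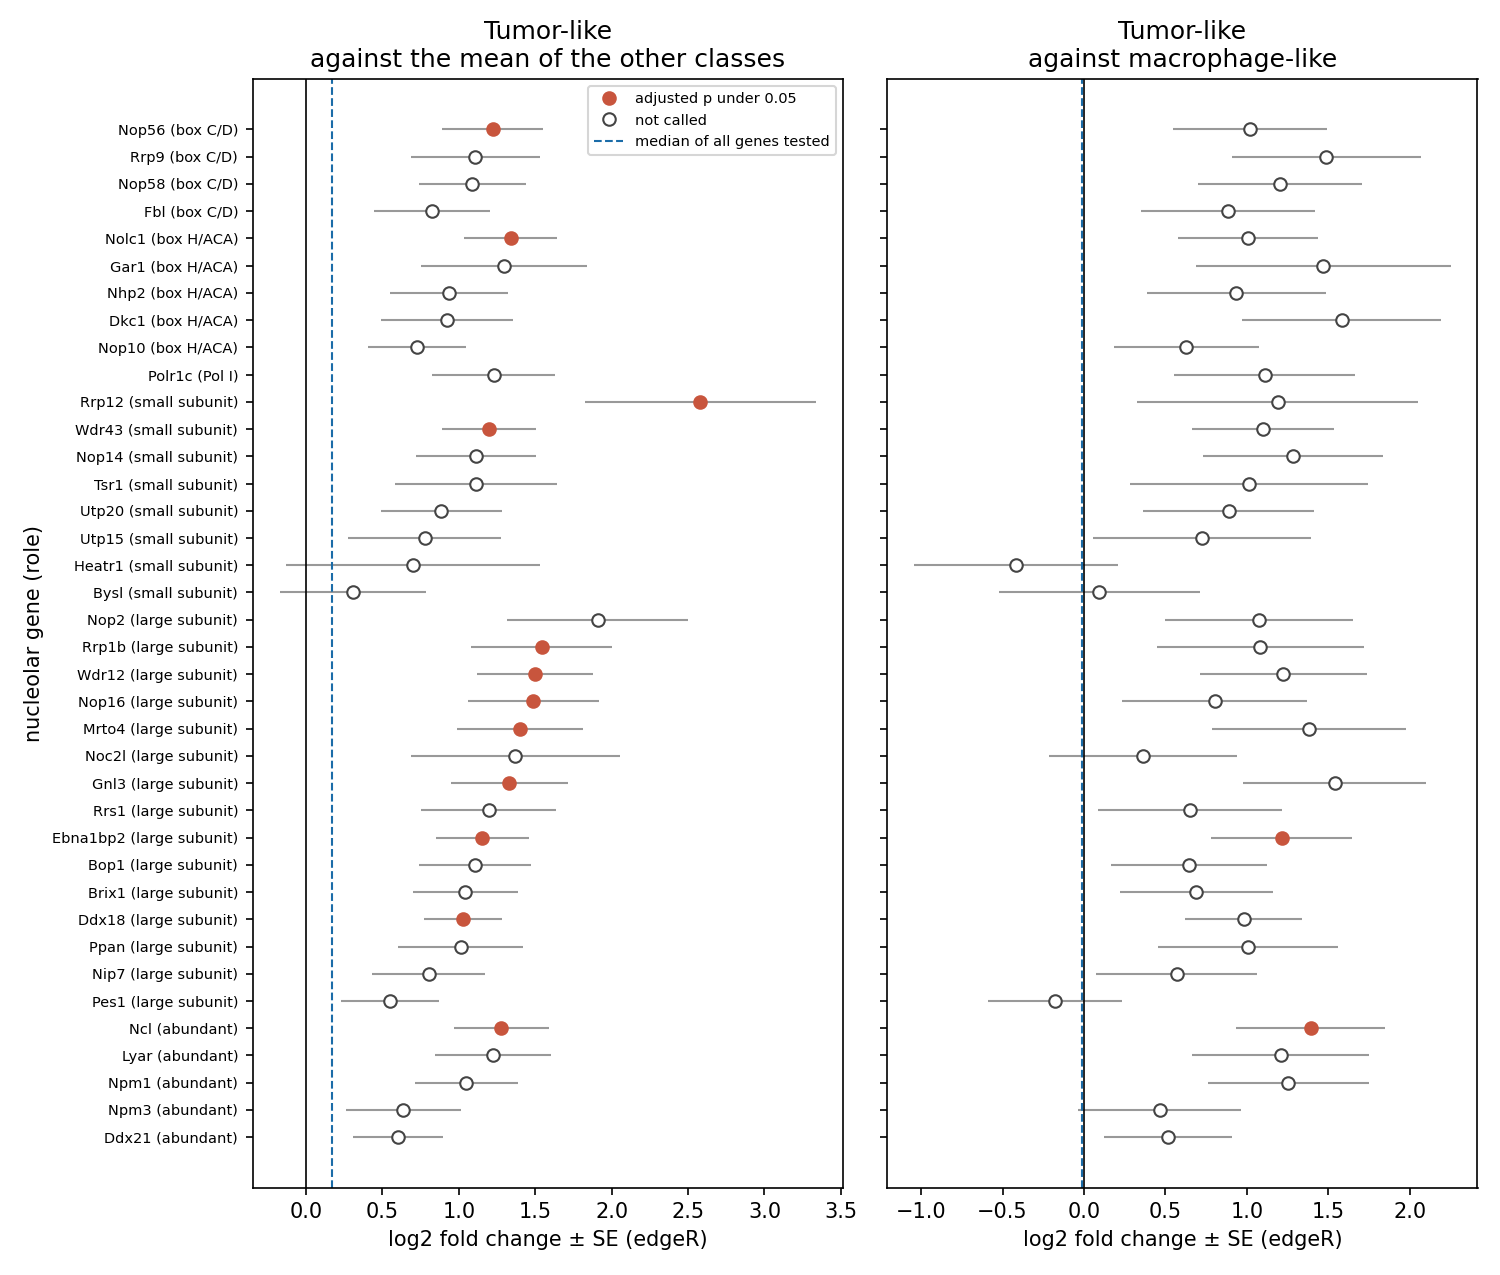
Log2 fold change with standard error of each tested member in tumor-like cells, against the mean of the other classes and against macrophage-like cells, with called members in red. Dashed lines mark the median over all genes tested.

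How large the difference is depends on what the tumor-like cells are set against and how libraries are scaled. Without scaling factors the median of all genes moved to 0.50, with 1106 genes higher and 164 lower in place of 484 and 124, and 22 members were called. By DESeq2 it moved to -0.56, with 63 genes higher and 1588 lower, and 4 members were called. Relative to those all-gene medians the members' medians of 1.40 and 0.63 stay above the rest, and under DESeq2 36 of 38 were positive, with Bysl at -0.19 among the others. Classes of a tumor come from the same animal, and with that paired structure as a replicate block 26 members were called, among 1307 genes higher and 258 lower. All 12 were kept, and the 14 added were Nop58, Rrp9, Dkc1, Gar1, Nhp2, Polr1c, Nop14, Bop1, Noc2l, Ppan, Brix1, Nop2, Npm1 and Lyar, which are given below as not passing in the main fit. Counts were simulated with a set of genes changed in tumor-like sums and the others alike in all classes. There a mean of log levels over shallow sums moved unchanged genes upward and called some of them, all higher. The other classes of each tumor were then pooled into 1 sum, which did not have that shift in simulated counts. That sum adds raw UMIs, and among the pooled classes macrophage-like cells gave the most (6047586, 400880 and 676122 UMIs in tumors 1, 2 and 3). Against the pooled sums all 45 members could be tested and 15 rose, beside 6.68% of 10052 genes. Of the members 43 were positive, with a median of 0.94 against -0.015 over all genes. Of the 12 members called against the mean of classes 6 were called there too, namely Ncl, Gnl3, Ebna1bp2, Ddx18, Nop16 and Wdr43. Nop56, Nolc1, Rrp12, Wdr12, Mrto4 and Rrp1b were not. The 9 others called there were Fbl, Rrp9, Dkc1, Polr1b, Nop14, Tsr1, Nob1, Nop2 and Npm1, so which members of a role pass depends on the fit. With the paired animals as a replicate block the pooled sums called 24 members, beside 10.3% of genes, and kept 11 of the 12, all but Rrp12, while Polr1b was not called (adjusted p = 0.0508). The roles below are described by the main fit, with calls against the pooled sums without a block named where they differ. Leaving out a tumor did not lower the count, with 19 members called without tumor 1, 16 without tumor 2 and 12 without tumor 3, although only 28 members could be tested without tumor 1. The genes higher were then 588, 814 and 1182, which is 13.1%, 6.77% and 10.2% of 4501, 12026 and 11573 tested. Of the 12, 9, 9 and 10 were among the called in turn. Cells on the border of classes move with the start of the clustering. From 2 other seeds 12 and 14 members were called, beside 6.30% and 6.38% of genes higher. At like abundance the members also stood apart, since within 5 bins of mean level their median fold change ran from 0.94 to 1.49 and that of the other genes from 0.09 to 0.32.

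The box C/D proteins, which carry ribose methylation of ribosomal RNA, were among the most abundant members. Nop58, a core scaffold of these particles, stood at 286, 322 and 284 CPM in tumor-like cells of tumors 1, 2 and 3 and at 74.7, 154 and 166 CPM in macrophage-like cells. All tumor-like values lay above all macrophage-like ones, with a log2 fold change of 1.09 ± 0.35 (standard error) over the mean of classes (adjusted p = 0.0563). Its partner Nop56 gave 229, 309 and 293 CPM in tumor-like cells against 78.1, 169.6 and 171 CPM in macrophage-like and 51.9, 119.7 and 165 CPM in neutrophil-like cells. Tumor 1 was lowest in each class, tumor-like values lay above both myeloid classes, and in the main fit Nop56 was the 1 box C/D member that rose (1.22 ± 0.33, adjusted p = 0.0360, higher in 3 of 3 tumors). Fbl, the methyltransferase itself, stood at 251, 251 and 326 CPM against 118, 146 and 191 CPM in macrophage-like cells, a smaller difference (0.83 ± 0.38, adjusted p = 0.163). Rrp9, which binds the small nucleolar RNA of the first cleavages, was less abundant at 62.8, 56.9 and 68.2 CPM (1.11, adjusted p = 0.0933). Against the pooled classes Fbl (adjusted p = 0.0489) and Rrp9 (adjusted p = 0.0428) were called and Nop56 was not (adjusted p = 0.0625). With the replicate block for paired animals added, all 4 box C/D members were called, beside 10.3% of genes.

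Among the box H/ACA proteins, which carry pseudouridylation, the chaperone Nolc1 rose in the main fit and the core proteins had positive fold changes that did not pass there. Nolc1 gave 172, 188 and 139 CPM in tumor-like cells, 47.7, 121 and 87.0 CPM in macrophage-like cells and 43.3, 68.4 and 36.6 CPM in neutrophil-like cells. Each tumor-like value exceeded each myeloid one (1.34 ± 0.31, adjusted p = 0.0245, higher in 3 of 3 tumors). Nop10, the smallest core protein and the most abundant of the group, stood at 319, 471 and 506 CPM against 210.0, 316 and 326 CPM in macrophage-like cells. There the ranges overlapped, since tumor 1 was low in both classes (0.73 ± 0.32, adjusted p = 0.144). Nhp2 gave 196, 297 and 346 CPM against 87.4, 172 and 188 CPM, ranges that only just parted (0.94, adjusted p = 0.120). Dkc1, the pseudouridine synthase, and Gar1, another core protein, gave 0.92 and 1.30 with adjusted p = 0.169 and 0.124. Against the pooled classes Dkc1 was called (1.12, adjusted p = 0.0342) and Nolc1 was not (adjusted p = 0.0505), and with the replicate block both were.

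RNA polymerase I gave no call in the main fit, where only 1 subunit was tested. Polr1c, a subunit shared with RNA polymerase III, gave 81.5, 106 and 102 CPM in tumor-like cells and 24.0, 61.7 and 54.4 CPM in macrophage-like cells (1.23 ± 0.40, adjusted p = 0.0578), and it was the only subunit to pass the low-count filter. Polr1b, one of the catalytic pair, stood at 25.4, 15.9 and 21.2 CPM against 5.36, 12.8 and 9.32 CPM, and was called against the pooled classes (1.34, adjusted p = 0.0308, and 0.0508 with the replicate block). Polr1a, the largest subunit, stood at 14.7, 14.9 and 19.1 CPM in tumor-like cells, 24.4, 20.6 and 29.5 CPM in macrophage-like cells and 66.3, 17.1 and 36.6 CPM in neutrophil-like cells. Its tumor-like values were below the macrophage-like ones in all 3 tumors, where those of Polr1b and Polr1c were above. Against the mean of the other classes Polr1a was higher in 2 of 3 tumors and the other subunits in 3.

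Among factors of the small subunit, Wdr43 and Rrp12 of 8 tested rose in the main fit, where 6.17% of all genes did. Against the pooled classes 4 of 11 rose, Wdr43, Nop14, Tsr1 and Nob1, beside 6.68% of genes. In the main fit 5 were higher at unadjusted p under 0.05, and the median log2 fold change was 1.0. Wdr43, part of the early processome that gathers on the nascent precursor, gave 180.4, 249.6 and 156 CPM in tumor-like cells against 71.3, 105 and 103 CPM in macrophage-like and 23.1, 119.7 and 54.9 CPM in neutrophil-like cells. Tumor-like cells were above both in each tumor (1.20 ± 0.31, adjusted p = 0.0308). Rrp12, an export factor of both subunits, stood at 25.4, 15.4 and 16.5 CPM against 6.16, 18.0 and 3.11 CPM in macrophage-like cells, where it rested on 31, 7 and 2 UMIs. In the main fit its fold change was the largest of all members but tumor 2 went the other way and the error is wide (2.58 ± 0.76, adjusted p = 0.0438). Against the pooled classes it was 1.26 (adjusted p = 0.0968), below Polr1b at 1.34. Nop14, which works in a complex with Noc4l, stood at 94.9, 103 and 88.2 CPM against 29.6, 51.4 and 40.4 CPM (1.11 ± 0.39, adjusted p = 0.0727). Bysl, a later assembly factor, hardly differed, with 24.1, 24.6 and 29.8 CPM against 19.9, 23.1 and 32.6 CPM, the smallest fold change of the list (0.30 ± 0.48, adjusted p = 0.929). Heatr1, a large processome scaffold, was lower in tumor-like than in macrophage-like cells of each tumor (20.1, 19.0 and 12.1 CPM against 29.0, 23.1 and 15.5 CPM). The processome proteins Utp4, Utp15 and Utp20, Tsr1 of late assembly, and Nob1, the endonuclease of the last small-subunit cleavage, had tumor-like means of 31.4, 27.0, 31.4, 34.9 and 44.6 CPM.

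Large-subunit factors gave 7 calls among 15 tested in the main fit, beside 6.17% of all genes. Against the pooled classes they gave 5 among 17, beside 6.68% (Ddx18, Ebna1bp2, Gnl3, Nop16 and Nop2). In the main fit 13 were higher at unadjusted p under 0.05, with a median of 1.19. Gnl3, or nucleostemin, a nucleolar GTPase of proliferating and stem-like cells, stood at 254, 381 and 299 CPM in tumor-like cells, 59.6, 126 and 143 CPM in macrophage-like cells and 26.0, 128 and 238 CPM in neutrophil-like cells. Macrophage-like values all lay below tumor-like ones, and neutrophil-like cells of tumor 3 came close (1.33 ± 0.38, adjusted p = 0.0404). Ebna1bp2, an early assembly factor, gave 191, 224 and 269 CPM against 65.4, 105 and 130.5 CPM in macrophage-like cells (1.15 ± 0.30, adjusted p = 0.0335). Mrto4, a relative of the ribosomal stalk protein that holds its place during assembly, gave 168, 226 and 264 CPM (1.40 ± 0.41, adjusted p = 0.0428), and in both genes tumor 1 was lowest and tumor 3 highest. Ddx18, an RNA helicase, was nearly even at 166, 153 and 165 CPM against 60.0, 92.5 and 97.9 CPM (1.03 ± 0.26, adjusted p = 0.0293). Nop16 at 68.2, 72.8 and 76.1 CPM rose as well (1.49 ± 0.43, adjusted p = 0.0416).

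The 3 proteins of the Pes1–Bop1–Wdr12 complex, which act together in large-subunit maturation, all exceeded the mean of the other classes in 3 of 3 tumors. In the main fit only Wdr12 was called. Wdr12 stood at 70.8, 102 and 74.3 CPM and rose (1.5 ± 0.38, adjusted p = 0.0299). Pes1 gave 44.1, 43.6 and 39.6 CPM in tumor-like cells and 46.9, 46.3 and 52.8 CPM in macrophage-like cells, its highest class, and did not pass (0.55 ± 0.32, adjusted p = 0.292). Pes1 was thus lower in tumor-like cells than in macrophage-like cells of each tumor while Wdr12 was higher. Bop1 had a tumor-like mean of 52.1 CPM (1.11 ± 0.37, adjusted p = 0.0595). Against the pooled classes none of the 3 was called (Wdr12 adjusted p = 0.0565). With the replicate block Wdr12 was called in both fits, and Bop1 against the mean of classes alone (adjusted p = 0.0162). A difference between the 3 was not tested. Nop2, a methyltransferase of large-subunit RNA, gave 42.8, 31.3 and 37.7 CPM against 16.3, 15.4 and 21.7 CPM in macrophage-like cells, and was seen in neutrophil-like cells of tumor 1 alone (1.91 ± 0.59, adjusted p = 0.0507). Rrp1b, a nucleolar protein, stood at 62.8, 85.6 and 71.5 CPM against 18.7, 54.0 and 37.3 CPM in macrophage-like cells. Its tumor-like values all lay above those, and it rose (1.54 ± 0.46, adjusted p = 0.0461). Brix1, Nip7, Ppan, Noc2l, Rrs1, Wdr74 and Noc3l, all of large-subunit assembly, ran from 115 down to 23.2 CPM in tumor-like cells. None was called in the main fit, where Wdr74 and Noc3l were not tested, nor against the pooled classes. With the replicate block in the main fit Brix1, Ppan and Noc2l were called.

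Nucleolin and nucleophosmin, abundant proteins of the nucleolus, were the 2 members of highest level. Ncl, which binds the precursor and its gene chromatin, stood at 1913, 2073 and 1715 CPM in tumor-like cells, 364, 1059 and 783 CPM in macrophage-like cells and 378, 1128 and 1098 CPM in neutrophil-like cells. Tumor-like values lay above both myeloid classes, and Ncl rose (1.28 ± 0.31, adjusted p = 0.0276, higher in 3 of 3 tumors). Npm1, a histone and ribosomal protein chaperone, gave 2505, 2989 and 2954 CPM against 648, 1455 and 1486 CPM in macrophage-like cells and 320.2, 1863 and 1629 CPM in neutrophil-like cells. Its mean in T cell-like cells was 2127 CPM, near the tumor-like level, and the main test did not pass (1.05 ± 0.34, adjusted p = 0.0562), while that against the pooled classes did (1.06, adjusted p = 0.0443). Ddx21, a helicase that links polymerase I to processing, stood at 271, 161 and 196 CPM against 179.6, 97.7 and 166 CPM in macrophage-like cells, with overlap (0.60 ± 0.29, adjusted p = 0.187). Lyar, a zinc finger protein of growing cells, and Npm3, a relative of nucleophosmin, had tumor-like means of 196 and 107 CPM with fold changes of 1.22 and 0.64. Seen per cell at 500 UMIs, Ncl was found in 59.4%, 70.5% and 59.0% of tumor-like cells of tumors 1, 2 and 3, in 14.4%, 46.6% and 34.4% of macrophage-like cells and in 8.05%, 40.7% and 45.5% of neutrophil-like cells. At full depth these shares were 74.7%, 96.2% and 94.8%, then 81.4%, 97.1% and 84.9%, then 37.7%, 88.9% and 100%. Tumor-like cells of tumor 1 hold a median of 937.5 UMIs and macrophage-like cells there 8775. For Npm1 the 22 neutrophil-like cells of tumor 3 gave 81.8% (100% at full depth) and its tumor-like cells 80.9% (99.2%), against the order of the CPM, so no order is read from these.

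Neighbouring gene lists place these values. Of 65 other ribosome biogenesis genes tested 8 rose and all 65 fold changes were positive, with a median of 0.88. Beside this count and those of the lists below stands the 6.17% of all genes called higher. Rcl1, an endonuclease-like factor of early cleavage, gave 2.44 ± 0.70 (adjusted p = 0.0437) and Tsr2, an escort of a small-subunit protein, 2.22 ± 0.59 (adjusted p = 0.0351). Other MYC targets had 3 of 19 called and a median of 1.08, led by Cad of pyrimidine synthesis (1.54 ± 0.43, adjusted p = 0.0390) and the chaperonin gene Hspd1 (1.42 ± 0.39, adjusted p = 0.0371). Values were lower for ribosomal protein genes, and their difference from the members was not tested. Of 83 ribosomal protein genes 0 were called by edgeR, 53 were positive and 30 negative, and the median was 0.06, below the all-gene median. Cell cycle genes stood higher too, with 7 of 23 S phase genes (median 1.43; Uhrf1 3.01 ± 0.70, adjusted p = 0.0245) and 10 of 24 G2/M genes (median 1.84; Plk1 3.01 ± 0.75, adjusted p = 0.0288). The nucleolar difference thus came with one in proliferation genes of about the same size or larger, and the 2 were not separated by this contrast. Mycn itself gave 2.30 ± 0.82 and did not pass (adjusted p = 0.0752), with its UMIs in other classes of tumors 2 and 3 counted against it.

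Against macrophage-like cells alone, the largest other class, the members again had mostly positive fold changes, with far fewer calls. Of 38 tested Ncl (1.39 ± 0.46, adjusted p = 0.0323) and Ebna1bp2 (1.21 ± 0.44, adjusted p = 0.04997) rose, beside 2.42% of genes, and 0 fell, beside 19.1% (0 lower at unadjusted p under 0.05 in edgeR, and 0 by DESeq2). Higher at unadjusted p under 0.05 were 15 members, and 36 of 38 were positive, with a median of 1.01 against -0.012 over all genes. Heatr1 at -0.42 and Pes1 at -0.18 were the 2 negatives. The largest values were Dkc1 at 1.58 ± 0.61 (adjusted p = 0.0685) and Gnl3 at 1.54 ± 0.56 (adjusted p = 0.0541). Per tumor, tumor-like CPM exceeded macrophage-like CPM in 3 of 3 tumors for 37 members, in 2 for Utp4, Utp15, Noc4l, Bysl and Rrp12, and in 0 for Polr1a, Heatr1 and Pes1. With the paired animals as a replicate block 20 members were called, beside 16.5% of genes. Without tumor 1 the count was 17 of 28 tested, beside 14.6% of genes. Without tumor 2 or tumor 3 it was 0, beside 0.832% and 1.75% of genes. Ambient-corrected counts gave 4 members, beside 1.44% of genes, and cells under 10% mitochondrial UMIs gave 0, beside 4.61%.

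Set against the smaller classes, the tumor-like cells had the largest median fold change of members over neutrophil-like cells and the smallest over T and B cell-like cells. Neutrophil-like cells were low in tumor 1, with members at 0.0805% of UMIs. In tumors 2 and 3 they held 0.538% and 0.663%, above endothelial-like cells at 0.433% and 0.536%. Beside 4.26% of genes, 8 members were higher than in neutrophil-like cells and 0 lower (beside 20.3%), with a median of 1.44: Nop56, Nolc1, Wdr43, Ddx18, Nip7, Ebna1bp2, Brix1 and Ddx21. Against CAF-like cells 5 were higher (beside 1.02%; Nop56, Rrp12, Bop1, Ncl and Lyar), against endothelial-like cells Nolc1 and Wdr43 (beside 1.21%), and against plasmacytoid dendritic-like cells Wdr12 and Ncl (beside 1.84%). None was lower in these, beside 17.9%, 16.5% and 14.3% of genes. B cell-like cells differed in Ebna1bp2 alone (1.76, adjusted p = 0.0236; beside 0.727% higher and 9.01% lower), with a median of 0.65. T cell-like cells differed by edgeR in 0 members (beside 0.179% higher and 8.22% lower; 3 higher and 0 lower at unadjusted p under 0.05), with a median of 0.63, and erythroid-like cells in 0 (beside 0% higher and 0.0765% lower; 4 higher and 0 lower unadjusted). Against erythroid-like cells the members' median of 0.77 was below the 1.40 of all genes, so their level there was no lower than that of other genes. DESeq2 was not run for these smaller classes. The sums behind them were as small as 23760 UMIs, and the part of depth in these counts of calls was not tested.

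Neutrophil-like cells had the lowest nucleolar levels in tumor 1, where they were the lowest class for 34 of 45 members, but not in tumors 2 and 3. Against the mean of the other classes edgeR called 0 members higher, beside 16.8% of genes, and 0 lower, beside 1.02% (0 higher and 2 lower at unadjusted p under 0.05; 0 in either direction by DESeq2). The 2 were Nip7, a cofactor of ribosomal RNA processing, at -1.31 ± 0.59 and Ddx21 at -0.99 ± 0.37 (adjusted p = 0.0728). Fold changes were negative for 30 of 38, with a median of -0.48 while the median of all genes was 0.22. Without tumor 1 the median was -0.07 with 16 of 28 negative, and without tumor 2 it was -1.02 with 41 of 45 negative. Of 8 genes of the immediate early response tested 4 rose and 0 fell in these cells, with a median of 2.11, led by Junb at 3.80 (adjusted p = 2.45e-07) and Egr1 at 3.31 (adjusted p = 1.33e-05). Of the 83 ribosomal protein genes 81 were negative, with a median of -0.61 and 0 calls. Riok1, a kinase of late small-subunit assembly, was the 1 other biogenesis gene to fall (-2.00 ± 0.61, adjusted p = 0.0224). With the replicate block for the paired classes 0 members were lower while the genes lower went from 80 to 157, and without scaling factors 1 member was lower. In tumor 3 the class rests on 22 cells and in tumors 2 and 3 its Mycn shares of UMIs were 0.0195% and 0.0336%, against 0.00198% in tumor 1.

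Tumor-like cells were fairly even among themselves. Clusters 0, 1 and 2 gave member shares of 1.06% to 1.28% of UMIs in all 3 tumors. Cluster 3 gave 0.376%, 1.13% and 1.0% in tumors 1, 2 and 3, and cluster 5 gave 0.935%, 1.07% and 0.987%. The value that stands apart, cluster 3 of tumor 1, comes from 42 cells with a median of 634 UMIs and 9.57% mitochondrial UMIs. In tumors 2 and 3 the same cluster had 9.22% and 8.62%. The part of cell quality in its low share was not tested.

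Within tumor-like cells thinned to 1000 UMIs, the share of nucleolar genes differed little with Mycn, and the difference changed with depth and draw. Each cell was thinned to 1000 UMIs, which kept 160, 864 and 2051 cells, and cells with a Mycn UMI (80, 280 and 956) were compared with cells without one (80, 584 and 1095). At 0, 1, 2 and at least 3 Mycn UMIs the members made up 1.12%, 1.14%, 1.20% and 1.26% of UMIs in tumor 1. In tumor 2 the shares were 1.19%, 1.24%, 1.21% and 1.42%, and in tumor 3 they were 1.09%, 1.11%, 1.12% and 1.03%. The high ends rest on few cells, 14 in tumor 1 (95% Poisson interval 1.08 to 1.46) and 8 in tumor 2 (1.17 to 1.70). With minus without, the difference was 0.0545, 0.0504 and 0.0208 percentage points (mean 0.0419, SD 0.0184, n = 3 tumors), positive in each tumor but small beside the levels. It did not hold its size in all settings. With clusterings from 2 other seeds it was 0.103, 0.0374 and 0.0208, and 0.0545, 0.0504 and 0.0330, again positive in each tumor. From a second draw of the thinned UMIs it was 0.00608, -0.00554 and 0.0153, at 500 UMIs, where 192 shallower cells of tumor 1 enter, 0.273, 0.0314 and -0.00962, and at 2000 UMIs -0.00019, 0.117 and 0.0118, so that no tumor led throughout.

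**Figure D3:**
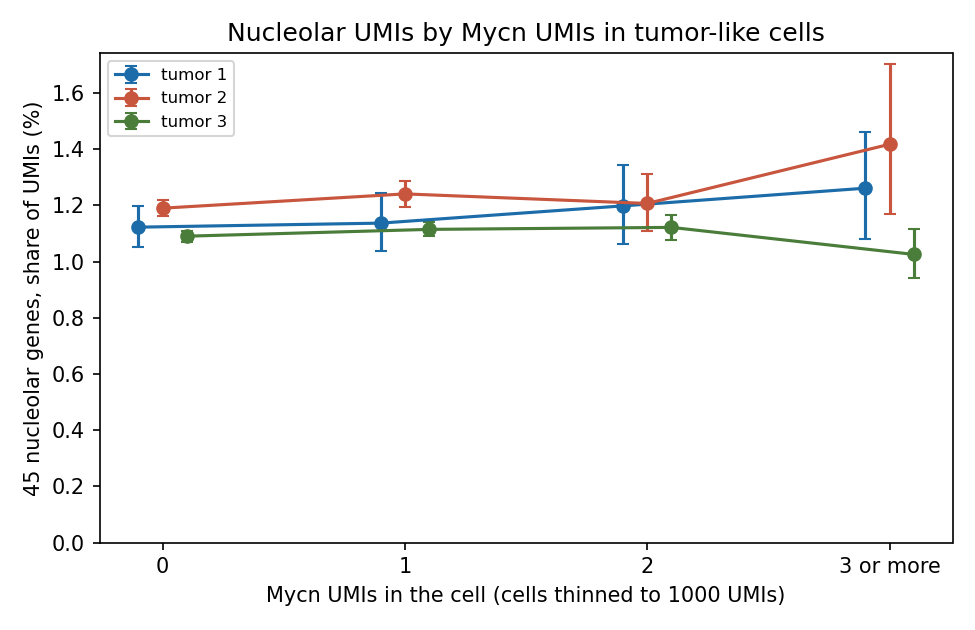
Share of UMIs from the 45 members in tumor-like cells thinned to equal depth, by number of Mycn UMIs in the cell and by tumor, with 95% Poisson intervals. Intervals of neighbouring steps overlap in all 3 tumors.

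Gene by gene the Mycn split called no member. By edgeR 0 of 44 members tested passed in either direction, beside 0% of 5531 genes higher and 0.253% lower, with 2 higher and 1 lower at unadjusted p under 0.05, and 0 by DESeq2. Signs were mixed at 26 positive and 18 negative, with a median of 0.04 against -0.0012 over all genes. Those at unadjusted p under 0.05 were Gar1 (0.30 ± 0.14), Npm3 (0.36 ± 0.18) and Nop14 (-0.39 ± 0.18), each with an adjusted p near 1. Largest were Tsr1 at 0.49 ± 0.32, Wdr74 at 0.47 ± 0.30 and Utp4 at 0.40 ± 0.33, though Wdr74 was higher with Mycn in tumor 3 alone. Smallest beside Nop14 were Heatr1 at -0.50 ± 0.46 and Noc4l at -0.28 ± 0.33. Ncl, a member called between classes, stood at 2352 CPM with and 2526 CPM without Mycn in tumor 1, at 2509 and 2574 CPM in tumor 2, and at 2009 and 1959 CPM in tumor 3. Npm1 gave 3223 and 3049 CPM, 3809 and 3620 CPM, and 3383 and 3375 CPM. Ncl was thus lower with Mycn in tumors 1 and 2, and Npm1 a little higher in all 3. Nop14 was lower with Mycn in each tumor, at 118 and 170.0 CPM, 94.1 and 117 CPM, and 89.5 and 119 CPM. Members higher with Mycn in all 3 tumors numbered 8, in 2 tumors 19, in 1 tumor 12 and in 0 tumors 6.

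What did differ with Mycn were mostly mitochondrial genes, often read as a sign of cell quality, and none was a member. The 14 genes that fell were the nuclear RNAs Malat1, Meg3 and Xist, the transcript Gm26917 and 10 mitochondrial genes. Malat1 stood at 2312.5 CPM with and 7512.5 CPM without Mycn in tumor 1, at 3704 and 5716 CPM in tumor 2, and at 3954 and 4407 CPM in tumor 3. The Malat1 gap was widest in tumor 1 (-0.67 ± 0.05 over the tumors, adjusted p = 7.36e-33), and the small error sits beside ratios that varied between tumors. DESeq2 called 0 of these genes, the fit without the replicate block 0, and clusterings from 2 other seeds 0 and 9, so these calls depend on the fit and on the border of the classes. Leaving out tumors 1, 2 and 3 in turn gave 12, 8 and 1 genes lower. Clusters of high mitochondrial share supplied 20% of cells without and 10% of cells with Mycn in tumor 1, 38.7% and 28.6% in tumor 2, and 22.6% and 18.5% in tumor 3. Leaving those clusters out, no gene was called and the differences in member share were -0.00548, 0.0182 and 0.0175 percentage points in tumors 1, 2 and 3. Their part was not tested further.

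Over single cells the rank correlation of Mycn with member UMIs was 0.0620, 0.0655 and 0.0183 in 160, 864 and 2051 cells of equal depth. Each cell held a median of 11, 12 and 11 member UMIs, so these sparse counts allow no reading of a weak relation. Mycn UMIs were also seen in 13.2% of T cell-like cells of tumor 3 at 500 UMIs, and how many of the tumor-like cells counted as having Mycn do so from the same source was not tested.

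A split of the same cells by the cell cycle gave no member either. Above and at or below the median of cell cycle UMIs the members summed to 11920.0 and 11106 CPM in tumor 1, 12320.2 and 11897 CPM in tumor 2, and 11300.2 and 10766 CPM in tumor 3. The sum was thus somewhat higher above the median in each tumor, as it was with Mycn. By edgeR the 2 sides differed in 0 of 44 members (beside 0% of 5497 genes higher and 0.273% lower; 0 higher and 1 lower at unadjusted p under 0.05; 0 by DESeq2), with a median of 0.05. Mrto4 at -0.26 ± 0.12 was that 1, and Malat1 was again among the 15 genes that fell (-0.51 ± 0.07). Mycn and the cell cycle together, tested as an interaction by edgeR, gave 0 of 30 members (0 at unadjusted p under 0.05), beside 0% of 2787 genes in each direction. DESeq2 was not run for the interaction. Mycn was not plainly closer to the members than the cell cycle genes, whose rank correlations with them were 0.0535, 0.0136 and 0.0620.

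The palindrome CACGTG, the E-box that MYC proteins bind and that reads the same on both strands, was looked for in RefSeq promoters (GRCm38.p6), where 40 of the 45 members had an entry; Bop1, Fbl, Npm1, Rrp12 and Rrs1 had none. In the 250 bases upstream of the start 1 of 40 members held it, Nop2, which is 2.5% beside 6.86% of 27025 promoters and 10.11% of the genes tested between classes. Over the whole window of 300 bases, which runs 50 bases past the start, 6 of 40 held it (15%, beside 8.09% of all promoters and 11.94% of 6121 genes tested between classes): Nop2, Pes1, Tsr1, Utp20, Utp4 and Wdr43. Other biogenesis genes held it in 10 of 68 upstream and 18 of 68 in the whole window, and other MYC targets in 9 of 19 in both. Most members thus lacked the motif, and of the 6 that held it all but Nop2 held it in the whole window only. Of these 6 Wdr43 was called in the main fit, with Nop2 and Tsr1 besides against the pooled classes. The stretch around the upstream match of Nop2, a member of large fold change between classes, is shown with the motif in capitals (chr6:125131811-125131840, plus strand, GRCm38.p6, from RefSeq).
Nop2: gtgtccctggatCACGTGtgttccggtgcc
The motif ends 54 bases before the start used in that table. A match describes these letters only, and binding was not measured.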

How the data were processed

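Dissociated tumors of 3 TH-MYCN mice were measured as single-cell 3′ libraries, 1 per tumor. The authors deposited, per tumor, a table of UMI counts made with Cell Ranger 3.1.0 on mm10, and a table on a natural log scale made with Seurat 3.1.5 after removal of ambient RNA. The deposited natural log values served only to define kept cells, by their barcodes, and to rebuild ambient-corrected counts as an alternative. All main values are from the raw counts. In tumor 1 the rebuilt counts total 818811 against 617783 raw UMIs in tumor-like cells. In macrophage-like cells there they total 2123330 against 6047586. They thus differ from the raw counts in depth too, and the parts of depth and ambient RNA were not tested. Kept cells were 58.8%, 28.2% and 41.7% of 3257, 4327 and 6038 barcodes in tumors 1, 2 and 3. The members and the gene lists were chosen with earlier results of these data known.

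Kept cells lack the doublets that the authors left out, and no doublet caller was run. They were clustered in Seurat 5.3.0 by CCA over tumors (2000 variable genes, 30 dimensions, 20 neighbors, resolution 1), with 234 genes of the members and compared lists held out. Classes were named where at least 5 markers of a type had a fold of 2 and were seen in 10% of cells; the minimum was adjusted after the first naming was seen, without the members' values in view. In trial runs, whose values were seen, cells at class borders moved with rounding in the matrix library, and member counts with them, so 1 thread and 1 kernel were fixed. Classes of a tumor with at least 10 cells were summed, to between 23760 and 6047586 UMIs. A member at 20 CPM thus rests on few UMIs in the smallest sums. Sums were fitted in edgeR 4.0.16 (quasi-likelihood, filterByExpr, TMM, Benjamini-Hochberg over all genes, threshold 0.05) under R 4.3.3, with DESeq2 1.42.0 as the other tool. Fold changes are log2 with standard errors, and levels are TMM-scaled CPM. Contrasts took tumor-like cells against an equal-weight mean over the remaining classes, then against each class alone, and neutrophil-like cells against an equal-weight mean in the same way. An exact sign-flip test over 3 tumors cannot go below a two-sided p of 0.25, so none is given.

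Classes of a tumor come from the same animal. Over 7843 genes in 6 classes, residuals correlated between classes of the same tumor at a median of 0.258 (-0.00994 to 0.604, 45 pairs) and between tumors at -0.199 (-0.456 to 0.213, 90 pairs). The replicate block for tumor was an alternative for class contrasts, and was part of the fit for the Mycn and cell cycle splits, which compare cells of a tumor. Those cells were thinned to 1000 UMIs (500 and 2000 as alternatives), which left out 192 shallower tumor-like cells of tumor 1 and 0 of the others.

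Genes described in full are the 2 most abundant members of each role, the 3 largest and 3 smallest fold changes of the main contrast and of the Mycn split, and the 2 largest called genes of each other list; the further members named, among them those called, were picked after values were seen. RefSeq promoters (250 bases before to 50 after the start, GRCm38.p6) were searched for CACGTG. Fits were tested on simulated data, where the contrast with the mean of log levels called unchanged genes as higher; contrasts with 1 class, with pooled sums and by Mycn were free of that shift. Other alternatives were no filter, no scaling factors, clustering resolution 0.5 and 2, clustering from 2 other seeds, a second thinning draw, a minimum of 20 cells, cells under 10% mitochondrial UMIs, and leaving out each tumor.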

Additional observations from a re-analysis of the deposited data

How the results depend on the processing

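No call of a named gene turned around under any alternative setting. Of 470 values for the tumor-like contrast 43 were weaker and 59 stronger, of 327 for the neutrophil-like contrast 15 were weaker and 0 stronger, and of 293 values of the Mycn split none was called, before or after, while 30 changed sign (1 and 14 in the class contrasts). Alternatives added after the data were seen were the runs without the clusters of high mitochondrial share, those of the macrophage-like contrast, the second thinning draw, the clusterings from other seeds, those of the cell cycle split and the pooled sums. Rounding in the matrix library moved cells at class borders in trial runs, so its number of threads and its kernel were fixed before the values given here were made. Causes of these shifts were not tested. Counts are listed where they moved by over 1.5 times, and smaller shifts are left out. Where it was run, the replicate block changed no other call of a member than those counted below; contrasts with the smaller single classes were not run with it.

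Tumor-like against the mean of classes (12 members; 484 genes higher, 124 lower), as members, genes higher and genes lower where moved: no filter 1980 higher and 253 lower; no scaling factors 22 members and 1106 higher; DESeq2 4, 63 and 1588; ambient-corrected counts 25, 1228 and 39; resolution 0.5 6 members and 74 lower; at least 20 cells 27, 1838 and 1380; cells under 10% mitochondrial UMIs 25 members and 1911 higher; no high-mitochondrial clusters 20 members and 218 lower; pooled other classes 2416 lower. With the paired animals as a replicate block it was 26, 1307 and 258, and pooled with the replicate block 24, 1038 and 2523. Leaving out 1 tumor gave 12 to 19 members, 588 to 1182 genes higher and 6 to 78 lower.

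Neutrophil-like against the mean (0 members; 1320 higher, 80 lower): no filter 1 member higher, 2162 genes higher and 32 lower; no scaling factors 1 member lower and 204 genes lower; DESeq2 41 lower; resolution 0.5 1 member higher and 43 genes lower; at least 20 cells 2 members and 171 genes lower; with the replicate block 1540 genes higher and 157 lower. Leaving out 1 tumor gave 565 to 1198 higher and 11 to 39 lower.

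Tumor-like against macrophage-like (2 members; 190 higher, 1495 lower): no filter 0, 1025 and 2851; no scaling factors 333 higher; DESeq2 1 member and 56 higher; ambient-corrected counts 4, 102 and 828; resolution 0.5 0 members; resolution 2 1 member; at least 20 cells 1 member and 371 higher; under 10% mitochondrial UMIs 0 members and 491 higher; no high-mitochondrial clusters 5 members; clustering from seed 3 1 member; with the replicate block 20 members, 1294 genes higher and 1938 lower. Leaving out 1 tumor gave 0 to 17 members, 100 to 656 genes higher and 990 to 1111 lower.

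Mycn split (0 genes higher, 14 lower): no filter 1 higher; DESeq2 0 lower; no replicate block 0 lower; no high-mitochondrial clusters 0 lower; 500 UMIs 0 lower; 2000 UMIs 7 lower; at least 2 Mycn UMIs 8 lower; ambient-corrected counts at 500 UMIs 9 lower; under 10% mitochondrial UMIs 2 lower; second draw 3 higher; clustering from seeds 2 and 3 0 and 9 lower; leaving out 1 tumor 0 to 1 higher and 1 to 12 lower. Cell cycle split (15 genes lower): DESeq2 0, no replicate block 0, no high-mitochondrial clusters 0, and leaving out 1 tumor 8 to 16 lower. The mean difference in member share with Mycn, 0.0419 percentage points, was 0.0981 at 500 UMIs, 0.0101 without the high-mitochondrial clusters and 0.00528 from the second draw. The tumor-like member share of 1.12% was 1.43% with ambient-corrected counts and 1.19% without the high-mitochondrial clusters. The ambient-corrected counts also differ from the raw ones in depth, so shifts under them are not those of ambient removal alone.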
